A study of Saccharomyces cerevisiae with 118 samples.

Results

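The genes described here are the 56 nuclear genes of budding yeast whose names have the form RPS followed by a number and, where there is one, a copy letter A or B. They encode the proteins of the small (40S) subunit of the cytosolic ribosome and were taken from 6664 nuclear genes by name alone, with no measured value used. Of the 56 genes, 48 form 24 pairs of copies and 8 are single, among them RPS2, RPS3, RPS12 and RPS31. The study asked how diet changes gene expression with age. RNA-seq measured mRNA in 118 samples of diploid yeast grown on different carbon sources. All strains carried the mother enrichment program (MEP), in which a Cre recombinase fused to an oestrogen-binding domain and driven by the daughter-specific SCW11 promoter disrupts UBC9 and CDC20 in new daughters once estradiol is added, so that only the original mothers keep dividing. They also carried 1 tagged copy each of TOM70 (GFP) and RPL13A (mCherry).

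The wild type was sampled in log phase, without estradiol, and as mothers aged 24 h and 48 h on glucose (3, 4 and 4 samples), galactose (3 at each age) and fructose (2 at each age). Sucrose and raffinose with galactose had 1 sample at each of these ages, raffinose 1 in log phase and at 48 h, acetate 1 in log phase and 1 each at 48 h and 72 h, and glucose 1 more at 72 h. On galactose the study added the deletion strains cox9 gal80 and cat8 (2 samples at each age) and snf4 (1 in log phase, 2 at 24 h). COX9 encodes a subunit of cytochrome c oxidase, GAL80 the repressor of the galactose genes, CAT8 an activator of non-fermentable carbon use, and SNF4 a subunit of the Snf1 kinase. On glucose it added Pgpd-HAP4 (2 samples at each age), in which 1 chromosomal copy of the respiratory regulator HAP4 is driven by the strong GPD promoter. In the media shifts, wild-type mothers spent 24 h on glucose or galactose and were then moved to the same or to the other sugar (3 samples of each of the 4 schedules, all with their own log phase and 24 h samples). Their labels give the age as log, whereas the study describes them as aged 48 h. Sorted fractions of 48 h cultures on glucose were separated by staining with wheat germ agglutinin (WGA), a lectin that binds bud scars and so rises with the number of divisions. They comprised 2 samples each of low, medium and high WGA for Pgpd-HAP4 and 1 each of low and high for wild type. In E36 the titles also give the Pgpd-HAP4 fractions a GFP class (high for low WGA, medium for medium, low for high WGA), and by the study's methods the Tom70-GFP signal was used for sorting too. A further 13 deletion strains on glucose (adr1, cat8, clb5, dot6 tod6, gcn4, hap4, mig1, pmr1, rox1, sip4, snf4, tec1 and yak1) had 1 sample per age. Log cultures hold mostly young cells, including newborn daughters, whereas aged samples are mothers purified through a biotin label.

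A yeast ribosome has 1 copy of each small subunit protein, and the subunit binds mRNA and decodes it. After the whole-genome duplication most of these genes were kept as 2 copies that encode the same or nearly the same protein, and the copies often differ in introns and flanking sequence. In growing cells the genes are among the most strongly transcribed. They are activated together by Rap1, Fhl1, Ifh1 and Sfp1 under the control of the TOR and protein kinase A pathways, and they are turned down when nutrients run short.

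Counted reads per sample ranged from 2901884 to 15288342 over the 59 samples of carbon sources and strains on galactose, from 4542794 to 16704695 over the 24 of the shift set, and from 561582 to 5483467 over the 8 sorted fractions. The shallowest were the low WGA fractions of the experiment E36, with 565971 (Pgpd-HAP4) and 561582 (wild type). The member with the fewest reads still had 234 reads in the shallowest case among carbon sources and 47 among the fractions, and all 56 members passed the filter on low values in every comparison. The 16 deleted genes checked had at most 21 reads in their deletion strains. HAP4 stood at 578 to 895 RPM (reads scaled to a library total of 1000000) in Pgpd-HAP4 and at 27 to 294 in wild type on glucose. Of 11 markers of newborn daughters, none was at 0 in any group. Their summed level was 3709 to 4153 RPM in log phase on glucose and 2191 to 2452 at 48 h, against 3468 to 4484 and 3014 to 3768 on galactose. In bulk samples fewer cells of a kind and less RNA per cell cannot be told apart. In most groups the replicates come from different experiments or repeats named in the titles, but those of cox9 gal80, cat8 and snf4 on galactose all come from 1 experiment (E56), which also holds 1 of the 3 wild-type samples at each age. The titles do not say whether samples are separate cultures, so p-values measure the spread between these samples.

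Whether reads can be assigned to 1 copy depends on the sequence. In 9 pairs, among them RPS4, RPS6, RPS16, RPS24 and RPS30, the copies encode identical proteins. Over the coding sequence, the share of windows of 75 bases, the read length, that occur in 1 copy only was at least 93.9% in 20 of the 24 pairs. It was lower in RPS6 (36.9%), RPS4 (70.9%) and RPS24 (74%), among others. The split between the copies of RPS6, and to a lesser degree RPS4 and RPS24, is therefore uncertain. Coordinates and sequences are those of build R64 from RefSeq, where all 56 members have the same position as in the deposited tables. Of the members, 36 have an intron, and the counts cover the whole span of each gene.

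The 3 pairs shown next, RPS9, RPS28 and RPS30, are those the comparisons of copies turn on. Each window of 75 coding bases is the one with the most differences and is given 5′ to 3′ on the coding strand, with the bases that differ between the copies in capitals. RPS9A (chrXVI:405670-405744, + strand) and RPS9B (chrII:605140-605214, + strand) differ at 12 bases in the window and at 53 single-base edits over the coding sequence. RPS28A (chrXV:648933-649007, - strand) and RPS28B (chrXII:673131-673205, + strand) differ at 11 and 24. RPS30A (chrXII:712621-712695, - strand) and RPS30B (chrXV:678275-678349, - strand) differ at 6 and 9.
RPS9A: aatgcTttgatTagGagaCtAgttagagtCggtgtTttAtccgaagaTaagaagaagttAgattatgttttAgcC
RPS9B: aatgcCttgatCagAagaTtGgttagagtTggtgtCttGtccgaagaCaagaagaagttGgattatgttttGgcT
RPS28A: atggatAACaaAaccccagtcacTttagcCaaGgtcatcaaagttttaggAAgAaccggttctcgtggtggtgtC
RPS28B: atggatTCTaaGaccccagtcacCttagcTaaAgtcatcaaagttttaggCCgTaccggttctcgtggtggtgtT
RPS30A: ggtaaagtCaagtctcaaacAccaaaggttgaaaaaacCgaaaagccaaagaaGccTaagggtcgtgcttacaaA
RPS30B: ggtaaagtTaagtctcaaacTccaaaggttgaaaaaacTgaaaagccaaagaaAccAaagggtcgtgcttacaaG

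Upstream of the coding start, within 500 bases, the Rap1 motif ACCCNNACA (either strand, N any base) was found in 18 of 56 members (32.1%), in 35 of 76 large subunit genes (46.1%) and in 4.69% of the 5846 other genes with an upstream window (5.47% of all genes). A pattern of TC and ACG with 6 bases of any kind between them was found in 39.3% of members and 37.8% of all genes. A run of at least 10 A or 10 T was found in 16.1% and 23.8%. Whether these matches overlap each other was not checked. In 4 members, among them RPS7A, RPS16A and RPS16B, the Rap1 motif occurred at least 2 times. Stretches upstream of both RPS16 copies are printed to show this arrangement, with the matches in capitals, in the sense of the gene. They lie 408 to 289 bases before the start of RPS16A (chrXIII:551520-551639, + strand) and 435 to 344 before RPS16B (chrIV:308133-308224, - strand). In both copies the matches lie on opposite strands.
RPS16A: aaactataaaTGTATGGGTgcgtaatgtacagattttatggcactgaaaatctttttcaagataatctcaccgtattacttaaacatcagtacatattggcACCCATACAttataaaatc
RPS16B: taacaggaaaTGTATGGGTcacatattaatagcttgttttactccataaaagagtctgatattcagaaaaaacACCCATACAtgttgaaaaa

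In log phase on glucose the 56 members together gave 8.22% to 9.13% of counted reads (3 samples). Per kilobase of coding sequence, RPS31 stood highest, at 10336 ± 768 RPM (SD, n = 3), followed by RPS12 (7365 ± 316). RPS20 (6555 ± 1277) and RPS2 (6148 ± 312) were also among the 5 highest. RPS31 encodes a ribosomal protein made as a fusion with ubiquitin and RPS12 a protein of the head of the subunit. The lowest were RPS9A (503 ± 52.2) and RPS14B (587 ± 128), each the weaker copy of its pair. RPS31 and RPS12 did not overlap, whereas RPS20 (5124 to 7577) overlapped both RPS12 and RPS2. At the low end RPS9A (449 to 554) and RPS14B (449 to 701) overlapped.

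The share of reads from members fell with age on glucose and fructose, fell less on galactose and was not lower on acetate, where each age had 1 sample. On glucose it was 8.22% to 9.13% in log phase, 6.19% to 6.75% at 24 h and 4.1% to 5.07% at 48 h, with no overlap between these ages. The 1 sample at 72 h, from another experiment, had 5.09%, above each of these 48 h samples. In the shift set the highest glucose then glucose sample had 5.39%. On fructose it was 7.86% and 8.82% in log phase and 4.47% and 5.06% at 48 h. On galactose it started lower, at 6.29% to 6.62%, and was 5.85% to 6.14% at 24 h and 5.21% to 5.66% at 48 h, again without overlap. The mean at 48 h was 0.54 of that in log phase on glucose, 0.571 on fructose and 0.842 on galactose, and 0.488 on glucose when reads outside ribosomal protein genes were the total. The 1-sample media followed both patterns: sucrose went from 8.02% in log phase to 5.21% at 48 h, raffinose with galactose from 6.46% to 5.12%, and raffinose from 5.08% to 3.18%. Acetate, which is not fermented, had the lowest share in log phase, 2.54%, with 2.93% at 48 h and 2.76% at 72 h. The ratio of small to large subunit reads stayed between 0.772 and 0.846 in the 59 samples of carbon sources and strains on galactose. In the sorted Pgpd-HAP4 fractions it was 0.951 and 1.005 in low WGA, against 0.81 and 0.838 in high WGA. This difference was not tested.

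**Figure D1:**
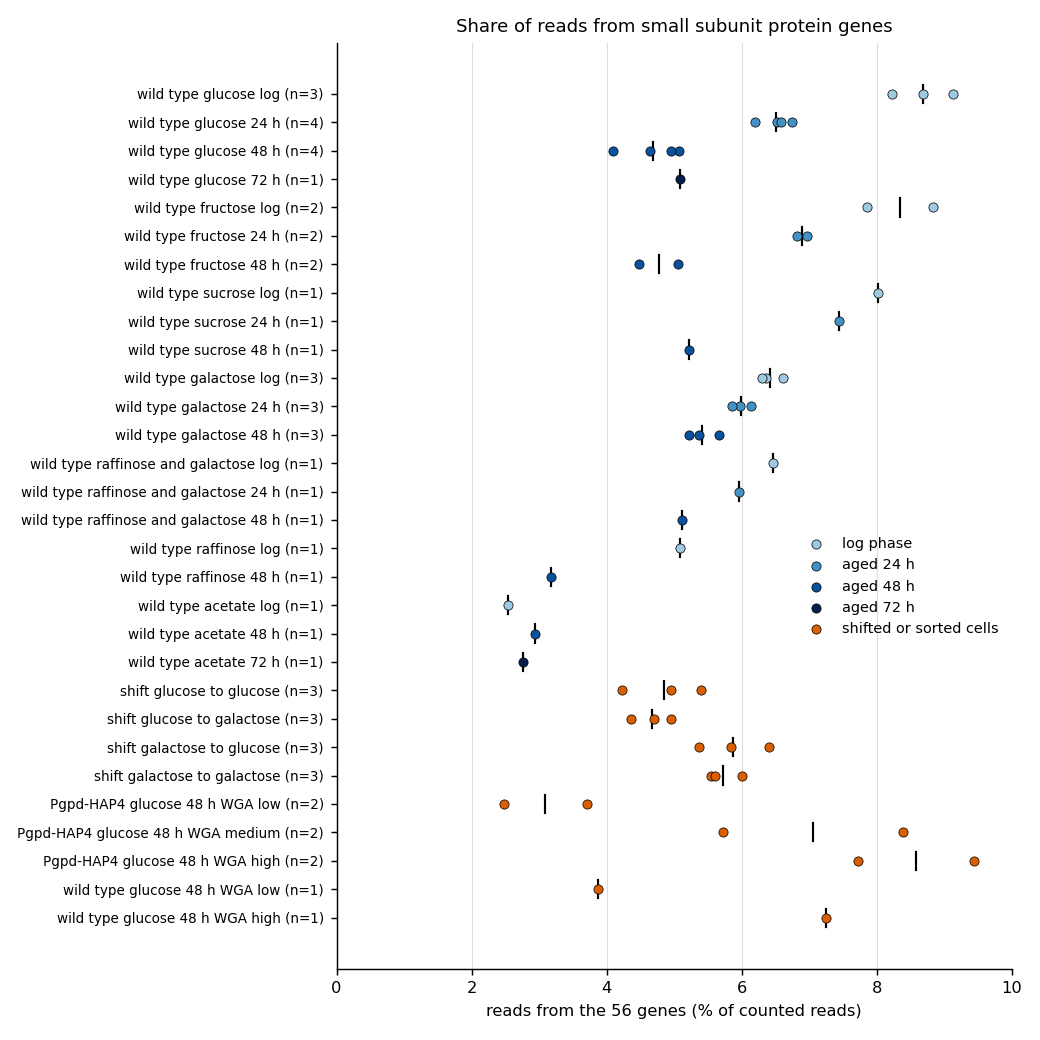
Percent of counted reads that came from the 56 small subunit genes (horizontal axis), by group, with 1 point per sample and a vertical bar at the group mean; colours give the age. Glucose and fructose samples move left with age (8.22% to 9.13% in log phase and 4.1% to 5.07% at 48 h on glucose), galactose samples move less, and the Pgpd-HAP4 low WGA fractions stand at 2.48% and 3.7% against 7.72% and 9.43% for high WGA.

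Ageing on glucose lowered most small subunit mRNAs, and the copies differed in how far they fell. Changes were tested with limma on log2 values after quantile normalisation, a step the study also used, at an adjusted p under 0.01 (Benjamini-Hochberg over all genes tested). On this scale, on which each sample has the same distribution of values, 40 of 56 members were called lower at 48 h than in log phase and none higher, where 30.1% of the 5785 genes tested were called lower. The median log2 change was -0.56 over the members and -0.14 over all genes. On the deposited values, scaled by size factors alone, all 56 members were called lower, against 25.9% of all genes, with medians of -1.43 and 0.01. The size of the fall thus depends on the scale, while the sign on the quantile scale was negative for 54 of 56. From log phase to 24 h 21 members were called lower (15.2% of all genes; 53 members and 15.1% on the deposited values), and from 24 h to 48 h 21 (13.3%). With the experiment as a block these counts were 32 for log phase to 48 h, 2 for log phase to 24 h and 9 for 24 h to 48 h. Without log phase replicate 3 the count for log phase to 48 h was 25, and single samples left out of the shorter steps gave counts of 5 to 17 and of 7 to 21.

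RPS28B showed the deepest fall on the quantile scale. It had 429, 360 and 324 RPM in log phase, 203 to 226 at 24 h, and 148, 161, 184 and 170 at 48 h. The ages did not overlap, and the log2 change to 48 h was -1.49 ± 0.11 (SE; adjusted p = 3.2e-05, limma). RPS28B encodes a head protein, and the product of this gene is known to promote decay of its own mRNA through Edc3. RPS9A followed, with 267, 301 and 329 RPM in log phase and 134, 158, 139 and 174 at 48 h (log2 change -1.34 ± 0.13, adjusted p = 7.12e-05). RPS9A encodes 1 of 2 forms of a body protein whose copies are known to regulate one another through their introns. RPS21A, for a protein on the platform side, had 828, 770 and 840 in log phase and 295, 347, 321 and 390 at 48 h (log2 change -1.24 ± 0.12, adjusted p = 7.38e-05). In these 3 genes every sample at 48 h was below every log phase sample.

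At the other end stood RPS30A, RPS31 and RPS25A. RPS30A, whose protein lies on the body near the decoding site, had 741, 837 and 871 RPM in log phase and 578, 883, 796 and 795 at 48 h. The groups overlapped, and the log2 change was 0.17 ± 0.15 on the quantile scale (adjusted p = 0.334) and -0.68 ± 0.15 on the deposited values (adjusted p = 0.00379). RPS31 had 4392, 4744 and 5097 in log phase and 2847, 3422, 3103 and 3582 at 48 h. Its log2 change was 0.12 ± 0.13 on the quantile scale (adjusted p = 0.436) and -1.12 ± 0.1 on the deposited values (adjusted p = 2.52e-05), so its direction depends on the scale. RPS25A, for a head protein used by some viral and cellular mRNAs, had 1502, 1433 and 1549 in log phase and 1006, 1085, 965 and 1027 at 48 h, with log2 changes of -0.05 ± 0.08 (adjusted p = 0.604) and -1.12 ± 0.08 (adjusted p = 1.07e-05).

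Of the 8 single-copy genes 5 were called lower from log phase to 48 h on glucose (8 on the deposited values), with a median log2 change of -0.49 (-1.66 on the deposited values). Among the 5 were RPS13 (-0.65 ± 0.08), RPS3 (-0.61 ± 0.11), RPS12 (-0.57 ± 0.09) and RPS2 (-0.51 ± 0.09). RPS20 (-0.28 ± 0.14), RPS15 (-0.25 ± 0.09) and RPS31 did not pass the test. By place in the subunit, 13 of 22 head members, 14 of 17 platform members and 13 of 17 body members were called lower, with median log2 changes of -0.46, -0.64 and -0.51. By gene structure, 26 of 36 members with an intron and 14 of 20 without one were called lower (medians -0.57 and -0.54). Of the members with a Rap1 match upstream, 12 of 18 were called lower, and of those without one 28 of 38 (medians -0.46 and -0.60). Binding of Rap1 was not measured, and a member without a match need not lack it.

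Neighbouring gene lists moved as follows between log phase and 48 h on glucose. Of 76 large subunit genes 47 were called lower and none higher (median log2 change -0.51). ASC1, the yeast RACK1, which binds the 40S head, was lower (-1.07 ± 0.09, adjusted p = 4.63e-05). Among 14 regulators of ribosomal protein genes 4 were called higher and 3 lower, where 1143 and 1742 of all 5785 genes tested were. These counts do not set the regulators apart from all genes. The activator IFH1 rose by 2.15 ± 0.09 and the repressor DOT6 by 0.98 ± 0.16 on the log2 scale, as did the kinases YAK1 (0.97 ± 0.17) and RIM15 (0.89 ± 0.1). RAP1 fell by 1.31 ± 0.12, the chromatin protein HMO1 by 0.98 ± 0.09 and the activator FHL1 by 0.36 ± 0.08. SFP1 did not pass the test (0.31 ± 0.1, adjusted p = 0.0232). Of 14 genes for 40S maturation, the casein kinase gene HRR25 was higher (0.73 ± 0.1) and FAP7 (-0.76 ± 0.11) and TSR1 (-0.58 ± 0.1) were lower. Of the daughter markers 9 of 11 were called lower in the same comparison, and their part in the result was not tested.

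Fructose followed glucose in size, with fewer calls from 2 samples per group. The median log2 change of members from log phase to 48 h was -0.57, and 8 of 56 were called lower (10.3% of all genes; 46 members and 8.87% of all genes on the deposited values). Among them were RPS0A, RPS7B, RPS9A, RPS9B, RPS21A and RPS28B. RPS9A had 253 and 338 RPM in log phase and 109 and 131 at 48 h, a log2 change of -1.60 ± 0.2 (adjusted p = 0.00508). RPS28B had 367 and 301, then 169 and 164 (-1.27 ± 0.12, adjusted p = 0.00253). RPS30A, with 710 and 893 and then 634 and 803, again had the highest value (0.03 ± 0.16). Across the 56 members the log2 changes on glucose and fructose had a Pearson r of 0.94 (Spearman rho 0.94); the points are genes measured in the same libraries, not independent replicates. With 1 sample left out the count was 0 to 2 (0 without either 48 h sample, 2 without either log phase sample), and with the experiment as a block it was 1.

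On galactose 1 member, RPS9A, was called lower at 48 h than in log phase, where 1.59% of all genes were called lower. It had 292, 354 and 341 RPM in log phase. This was 148, 170 and 160 after 24 h of ageing, then 112, 145 and 122 after 48 h. Most of its fall came in the first 24 h, and the log2 change to 48 h was -1.44 ± 0.13 (adjusted p = 0.00121). RPS9A was also the 1 member called from log phase to 24 h (-1.07 ± 0.11, adjusted p = 0.00417; 0.535% of all genes called lower). From 24 h to 48 h no member was called (0.136% of all genes in either direction); limma on the deposited values and limma-voom on reads gave 0 too, and 9 members were lower and none higher at an unadjusted p under 0.05. The next largest falls to 48 h were those of RPS28B (-0.75 ± 0.16, adjusted p = 0.0233) and RPS14B (-0.58 ± 0.14, adjusted p = 0.0375). RPS20 and RPS16A had the highest values (0.23 ± 0.18 and 0.19 ± 0.09). The median log2 change was -0.14 over members and -0.05 over all genes. The call of RPS9A from log phase to 48 h was lost without log phase replicate 3 or 48 h replicate 3, and that to 24 h without any sample but log phase replicate 1 and with the experiment as a block. On galactose none of 76 large subunit genes was called, ASC1 stood at -0.33 ± 0.11 (adjusted p = 0.0897), RAP1 alone of the 14 regulators was called, at -0.84 ± 0.1 (adjusted p = 0.00412), and none of the daughter markers was called.

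The difference between the sugars was tested directly, as the change from log phase to 48 h on galactose minus that on glucose. It was higher on galactose for 9 members and lower for none (6.14% of all genes called higher; median of members 0.39). Among them were RPS6A, RPS7A, RPS7B, RPS21A, RPS22A, RPS26B and RPS27A. RPS27A, for a zinc-binding platform protein, had a difference of 0.92 ± 0.22 (adjusted p = 0.00958). It went from 339, 405 and 474 RPM to 186, 244, 215 and 255 on glucose and from 251, 301 and 329 to 247, 259 and 299 on galactose, where both ages overlapped. RPS22A had 0.79 ± 0.14 (adjusted p = 0.00216), falling from between 1380 and 1682 to between 579 and 736 on glucose and from between 843 and 1051 to between 829 and 855 on galactose. RPS9A, which fell on both sugars, had a difference of -0.09 ± 0.18 (adjusted p = 0.722). RPS31 had -0.23 ± 0.17 (adjusted p = 0.315), which became 0.83 on the deposited values, where 52 members were called higher (11.4% of all genes). With the experiment as a block 5 members were called, and with 1 sample left out 2 (without galactose 48 h replicate 3) to 9. Across the 56 members the changes on the 2 sugars had a Pearson r of 0.68 and a Spearman rho of 0.66.

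At matched ages the share of reads from members was lower on galactose than on glucose in log phase (6.29% to 6.62% against 8.22% to 9.13%) and higher at 48 h (5.21% to 5.66% against 4.1% to 5.07%), without overlap at either age. The median log2 difference of members went from -0.33 in log phase to 0.07 at 48 h, with -0.12 between them at 24 h, and on the deposited values from -0.59 through -0.05 to 0.53. In log phase 3 members were called lower on galactose (2.94% of all genes; 28 members and 3.98% of all genes on the deposited values). They were RPS25B (-0.61 ± 0.1, adjusted p = 0.00965), RPS29A (-0.59 ± 0.09, adjusted p = 0.00733) and RPS24B (-0.54 ± 0.09, adjusted p = 0.00975), and 55 of 56 values were below 0. RPS29A had 462, 505 and 459 RPM on glucose and 344, 298 and 307 on galactose. With the experiment as a block none of the 3 passed, and without any single sample but galactose log phase replicate 1 the count was 0. At 24 h RPS14B (-0.44 ± 0.06, adjusted p = 0.00214) and RPS31 (-0.40 ± 0.05, adjusted p = 0.00207) were called lower (6.58% of all genes), neither of them with the block or without galactose 24 h replicate 3. RPS14B encodes the weaker copy of a platform protein that is known to block splicing of this transcript. At 48 h none was called (13.2% of all genes in either direction), with 10 members higher and 2 lower at an unadjusted p under 0.05. On the deposited values 32 were called higher at 48 h (10.3% of all genes called higher), and limma-voom called 11 higher and 1 lower.

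Between the strains with altered respiration and wild type no single member passed the test at the ages compared. The share of reads was lower in some strains at some ages. In cox9 gal80 on galactose it was 4.06% and 5.29% in log phase, below the wild-type range of 6.29% to 6.62% (6.62% in the sample of the same experiment), and 4.49% and 5.47% at 48 h against 5.21% to 5.66%. At 24 h cox9 gal80 had 5.71% and 6.08% against 5.85% to 6.14% in wild type. In snf4 the share was 5.23% and 5.37% at 24 h, but its 1 log phase sample had 7.04%, above wild type. These shares were not tested, and neither were single members in log phase of cox9 gal80, cat8 or snf4. No member was called in cox9 gal80 (0.186% of all genes) or cat8 (0.219%) against wild type at 48 h on galactose, in snf4 at 24 h (3.36%), or in Pgpd-HAP4 against wild type on glucose in log phase (2.02%) or at 48 h (0%). On the deposited values the counts were 0 apart from 1 lower in snf4, and by limma-voom 1 higher in cox9 gal80, 4 lower in snf4 and 0 in the others. At an unadjusted p under 0.05, 3 members were higher and 1 lower in cox9 gal80, 1 higher in cat8, 1 higher and 10 lower in snf4, and none in Pgpd-HAP4 at either age. The largest difference in cox9 gal80 was RPS9A, with a mean of 222 RPM against 126 in wild type (log2 difference 0.79 ± 0.14, adjusted p = 0.0388). In snf4 the lowest was RPS27A (-0.61 ± 0.09, adjusted p = 0.0142), and RPS21A followed (-0.49 ± 0.07, adjusted p = 0.013). In cat8 no member had an adjusted p below 0.418, and in Pgpd-HAP4 none below 0.392 in log phase and 0.784 at 48 h. The median log2 difference of members lay between -0.09 and 0.06 in these 5 comparisons, and on the deposited values it was -0.30 in cox9 gal80, -0.35 in snf4 and between -0.07 and 0.04 in the other 3.

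After a shift the mean share of reads was higher where the first sugar had been galactose, whichever sugar followed. The share of reads from members was 4.22% to 5.39% after glucose then glucose and 4.36% to 4.95% after glucose then galactose. It was 5.36% to 6.4% after galactose then glucose and 5.54% to 6% after galactose then galactose. Schedules with a different first sugar overlapped slightly, but only between repeats. Within each repeat both galactose-first samples lay above both glucose-first samples. In 1 repeat (E53_3) the glucose-first samples were sequenced on another lane, and these shares were not tested. Changing only the second sugar called no member, whether the first was glucose (3.12% of all genes called) or galactose (7.39%). At an unadjusted p under 0.05, 8 members were lower on galactose after glucose, and 12 higher on glucose after galactose, with 1 called by limma-voom in each and none on the deposited values. The largest of these differences were RPS2 after glucose (-0.30 ± 0.07, adjusted p = 0.0427) and RPS31 after galactose (0.41 ± 0.1, adjusted p = 0.0342). With galactose as the second sugar, 2 members were called lower when the first had been glucose, among them RPS6A (-0.40 ± 0.06, adjusted p = 0.00522), whose reads are hard to tell from those of RPS6B (7.01% of all genes called lower; median of members -0.20). On the deposited values 31 members were lower (10.4% of all genes), by limma-voom 38 lower and 2 higher, and with the experiment as a block or with any 1 sample left out none. With glucose as the second sugar no gene was called (0%), 14 members being higher and 1 lower after galactose at an unadjusted p under 0.05 (median 0.18). Daughter markers summed to 4387 to 5085 RPM after glucose then galactose and to 2462 to 3287 in the other schedules, and their part in these values was not tested.

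The copies of a pair are made in unequal amounts. In log phase on glucose the log2 of A over B ranged from -3.32 ± 0.1 (SD, n = 3) in RPS9, where copy A gave 9.11% of the reads of the pair, to 2.74 ± 0.23 in RPS14, where it gave 86.9%. In RPS22 copy A gave 77.5%, in RPS25 69.2% and in RPS28 68.3%. Among the most even were RPS16 (48.9%) and RPS0 (47.6%). The ratio within a sample does not depend on the size factor, and it was tested with limma on log2 A minus log2 B over all 61 gene pairs whose names differ by A and B.

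From log phase to 48 h on glucose, 11 of 24 ratios changed, where 47.5% of the 61 pairs did. Copy A gained in 6 of them and copy B in 5, and 3 of the 11 were among the 9 pairs with identical proteins. RPS30 changed most: its log2 A over B was 0.39, 0.59 and 0.74 in log phase and 1.24, 1.31, 1.32 and 1.36 at 48 h (change 0.73 ± 0.08, adjusted p = 7.49e-05). RPS21 went from -0.2, -0.44 and -0.37 to -0.92, -1.17, -1.08 and -1.03 (-0.72 ± 0.08, adjusted p = 7.25e-05). RPS14 went from 2.99, 2.7 and 2.54 to 2.13, 2.1, 1.99 and 2.08 (-0.67 ± 0.1, adjusted p = 0.000485). No sample at 48 h overlapped log phase in these pairs. In 7 of the 11 called pairs the copy that was weaker in log phase gained, and over all 24 pairs the stronger copy gained in 9. The copies were ranked on the same log phase samples that the change starts from, so these counts do not test a trend. RPS26 and RPS16 moved toward copy A by 0.59 ± 0.05 and 0.57 ± 0.06, RPS26 from between 0.34 and 0.45 to between 0.94 and 1.05. RPS26 encodes a protein at the mRNA exit channel, and RPS16 a head protein near the decoding site. Other called pairs included RPS22, RPS28, RPS6, RPS19 and RPS29. In the fit with the experiment as a block 9 ratios passed, RPS22 and RPS28 not among them. With ratios of quantile-normalised values the sign turned for RPS14 (0.14) and RPS22 (0.02), and the cause was not tested.

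**Figure D2:**
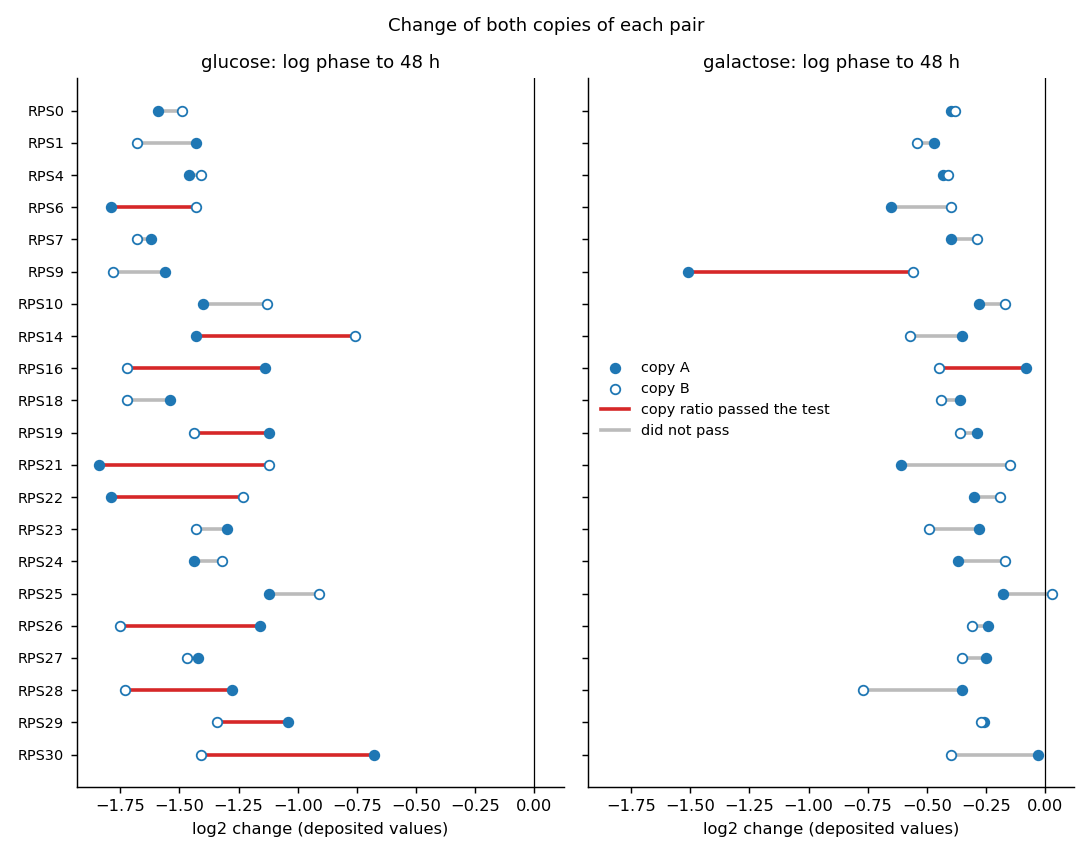
Log2 change from log phase to 48 h on glucose (left, 3 and 4 samples) and galactose (right, 3 and 3 samples), on the deposited values, for copy A (filled) and copy B (open) of 21 of the pairs; red lines join copies whose ratio passed the test. Of the ratios drawn 10 passed on glucose and 2 (RPS9 and RPS16) on galactose, and RPS9A stands apart on galactose.

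On galactose 2 ratios changed with age (8.2% of all pairs). RPS9 went from -2.81, -2.62 and -2.59 to -3.77, -3.44 and -3.67 (change -0.95 ± 0.1, adjusted p = 0.000982), so that copy A fell from a mean of 13.6% of the pair to 7.53%. RPS16 went from between -0.1 and -0.01 to between 0.27 and 0.38 (0.37 ± 0.06, adjusted p = 0.00473), the same direction as on glucose. With the experiment as a block RPS9 alone passed (adjusted p = 0.00108), and single samples left out gave 1 or 2. Log phase on galactose differed from glucose in 2 ratios (9.84% of all pairs): RPS9 (0.65 ± 0.08, adjusted p = 0.00186) and RPS25 (0.41 ± 0.07, adjusted p = 0.00702), in both of which copy A was relatively higher on galactose. Blocked by experiment, RPS22 passed too, toward copy B (adjusted p = 1.76e-06; -0.52 ± 0.15 and adjusted p = 0.0523 without the block). Without single samples that count was 0 to 2, and it was 0 without galactose log phase replicate 2. Across the 24 pairs the changes of the ratio with age on glucose and galactose had a Pearson r of 0.43 and a Spearman rho of 0.59.

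The ratio of the RPS9 copies varied with the medium. In log phase its log2 A over B was -3.29 on fructose, -2.91 on sucrose, -2.67 on galactose, -2.61 on raffinose with galactose, -2.47 on raffinose and -1.8 on acetate, where copy A gave 22.3% of the reads. Glucose (-3.43 to -3.26) and fructose (-3.41 to -3.18) overlapped, and both lay below every other medium; those others apart from galactose had 1 sample each. RPS22 also differed on acetate, with a log2 A over B of -0.12 against 1.80 ± 0.29 on glucose. At 48 h the RPS9 ratio stood at -3.09 ± 0.09 on glucose, -3.42 ± 0.09 on fructose, -3.63 ± 0.17 on galactose and -2.36 on acetate. In cox9 gal80 on galactose the RPS9 ratio was -1.86 ± 0.11 in log phase and -2.65 ± 0.3 at 48 h, against -2.73 ± 0.16 and -3.63 ± 0.06 in cat8. RPS9B, the major copy, went from 2869, 2911 and 3145 RPM to 1153, 1363, 1265 and 1362 on glucose and from 2046, 2176 and 2053 to 1529, 1564 and 1554 on galactose. RPS9A thus fell to a like level on both sugars, and RPS9B fell further on glucose. On glucose the ratio did not pass (0.22 ± 0.07, adjusted p = 0.0163).

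**Figure D3:**
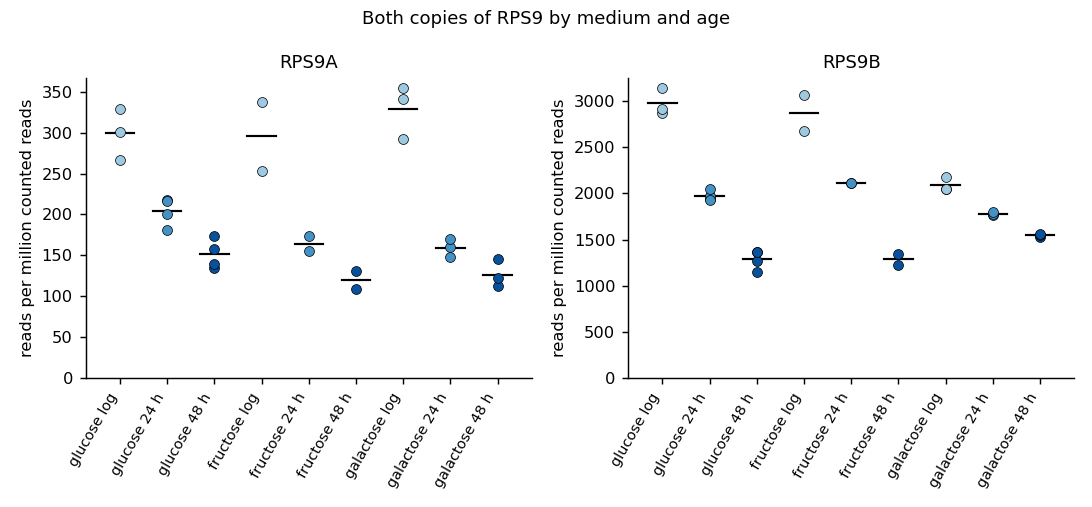
RPM of RPS9A (left) and RPS9B (right) in wild type by medium and age, with 1 point per sample and a bar at the group mean; the vertical axes differ in range. RPS9A falls on all 3 sugars (from 292, 354 and 341 to 112, 145 and 122 on galactose), and RPS9B falls more on glucose and fructose than on galactose.

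In the shifts, 1 ratio changed with the second sugar after glucose (4.92% of all pairs): RPS22 moved by -0.33 ± 0.06 toward copy B on galactose (adjusted p = 0.00356). The call was lost without any single sample, and 4 pairs passed with the experiment as a block. With glucose as the second sugar, 2 ratios differed by the first (11.5% of all pairs). RPS9 was lower after galactose by -0.75 ± 0.11 (adjusted p = 0.00175), with means of -3.74 after galactose then glucose and -2.98 after glucose then glucose. RPS14 was higher by 0.47 ± 0.09 (adjusted p = 0.00458). Without single samples the count was 0 to 3, and it was 0 without glucose then glucose replicate 3.

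In 48 h Pgpd-HAP4 cultures most small subunit mRNAs were several-fold lower in the low than in the high WGA fraction. The share of reads from members was 7.72% and 9.43% in high WGA, 5.72% and 8.38% in medium and 2.48% and 3.7% in low. The study judged the low and high profiles too unlike, even once quantile-normalised, to single out differentially expressed genes. The calls for single genes given here, from 2 against 2 libraries, are limited by this. Tested on the deposited values, 36 of 56 members were lower in low than in high WGA and none higher (5.9% of all genes called lower). The median log2 difference was -2.28 over members and 0.04 over all genes. RPS26B fell from 1342 and 1526 RPM to 287 and 203 (-2.74 ± 0.27, adjusted p = 0.00228), and RPS22A from 1599 and 1457 to 364 and 184 (-2.74 ± 0.37, adjusted p = 0.00506). The lowest value was that of RPS10B, a head protein gene (-2.75 ± 0.42, adjusted p = 0.00698). On quantile-normalised values 2 members were called lower, as were 75 of all 5813 genes tested. On the deposited values no member was called without either high WGA sample, and 41 or 46 were without either low WGA sample. The low WGA libraries were the shallowest, with 2256787 and 565971 counted reads. Their daughter markers summed to 9322 and 9622 RPM, against 2291 and 3120 in high WGA, but most single markers went the other way. CTS1 was called higher (3.26 ± 0.36, adjusted p = 0.00318) and none lower, the other 10 had values from -1.98 (DSE2) to -0.02 (BUD9), and the median was -1.02. In the wild-type fractions the sums were 7830 in low and 8766 in high. The part of depth and of these markers in the result was not tested. ASC1 was lower too (-2.57 ± 0.4, adjusted p = 0.00753), as were 49 of 76 large subunit genes, and IFH1 (3.86 ± 0.56), SFP1 (3.85 ± 0.28) and the corepressor gene CRF1 (2.02 ± 0.31) were higher.

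Members on chromosome XII to the right of the ribosomal DNA (rDNA), the region the study calls ChrXIIr, stood apart from the other members in the low WGA fraction. These are RPS31, RPS28B, RPS30A, RPS25B, RPS22B, RPS29A and RPS1A. None of the 7 was called lower, against 36 of the 49 members elsewhere, and their median log2 difference was -0.39 against -2.30. RPS30A had 1624 and 1090 RPM in low WGA and 1266 and 1089 in high (0.00 ± 0.3, adjusted p = 0.996). RPS31 had 6259 and 4147 in low and 6214 and 3760 in high (-0.10 ± 0.38, adjusted p = 0.84), and RPS28B 157 and 186 against 211 and 132 (-0.14 ± 0.36, adjusted p = 0.76). Among members elsewhere the smallest difference was that of RPS2 (-0.52), with 2653 and 2944 in low and 3671 and 3443 in high. The set of these genes was known from the study, and no test of the region was made. In the comparison of log phase with 48 h on glucose the medians were -0.37 for the 7 and -0.57 for the 49, with 4 and 36 called lower.

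**Figure D4:**
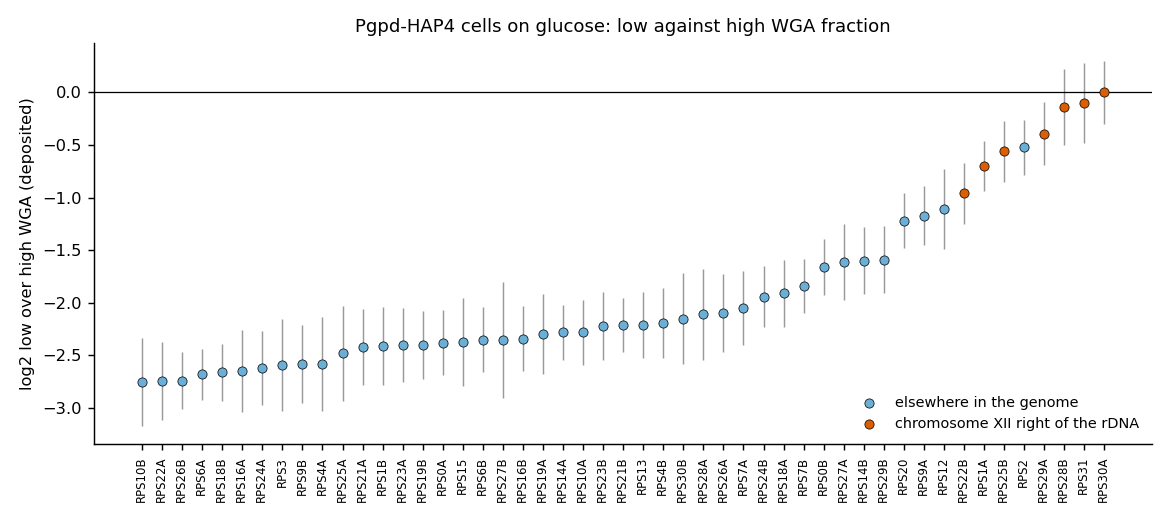
Log2 difference of the low from the high WGA fraction in Pgpd-HAP4 cultures aged 48 h (deposited values, 2 samples each) for 49 of the members in order of size, with standard errors; orange marks members on chromosome XII right of the rDNA. The 7 orange members lie among the 8 highest values, the other of which is RPS2.

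Within pairs, where both copies share the library, all 6 pairs with 1 copy right of the rDNA (RPS1, RPS22, RPS25, RPS28, RPS29 and RPS30) moved toward that copy in low WGA, and all 6 passed the test. In all, 8 of 24 ratios passed (26.2% of all pairs), RPS9 among them. RPS30 moved by 2.15 ± 0.33 (adjusted p = 7.48e-08), RPS28 by 1.97 toward copy B, RPS25 by 1.93 toward B, RPS22 by 1.77 toward B, RPS1 by 1.71 toward A and RPS29 by 1.2 toward A. The SE was 0.33 for every pair because the fit pooled the spread over pairs. The median log2 of the right-hand over the other copy was 0.69 and 1.13 in low WGA, -0.62 and -0.53 in medium and -0.72 and -0.67 in high, against -0.79 to -0.74 in wild type in log phase. In the wild-type fractions (1 sample each) it was 0.20 in low and -0.72 in high WGA. In that wild-type low fraction RPS28 did not move with the others, with a log2 B over A of -2.01 against -2.08 in high. Over ageing on glucose 5 of the 6 pairs moved toward the right-hand copy and 4 of the 6 passed, RPS30, RPS22 and RPS29 toward it and RPS28 away from it. Blocked by experiment, RPS22 (adjusted p = 0.0288) and RPS28 (adjusted p = 0.0131) did not pass, and RPS1 did, toward the right-hand copy (adjusted p = 0.00387). Over ageing on galactose 4 of the 6 pairs moved toward the right-hand copy, and 0 passed. Leaving out a high WGA sample reduced the count of ratios called to 2 or 4, and leaving out a low one gave 13 or 11. The right-hand copy RPS22B also holds a small nucleolar RNA gene on its strand within its intron, whose reads would count for RPS22B.

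**Figure D5:**
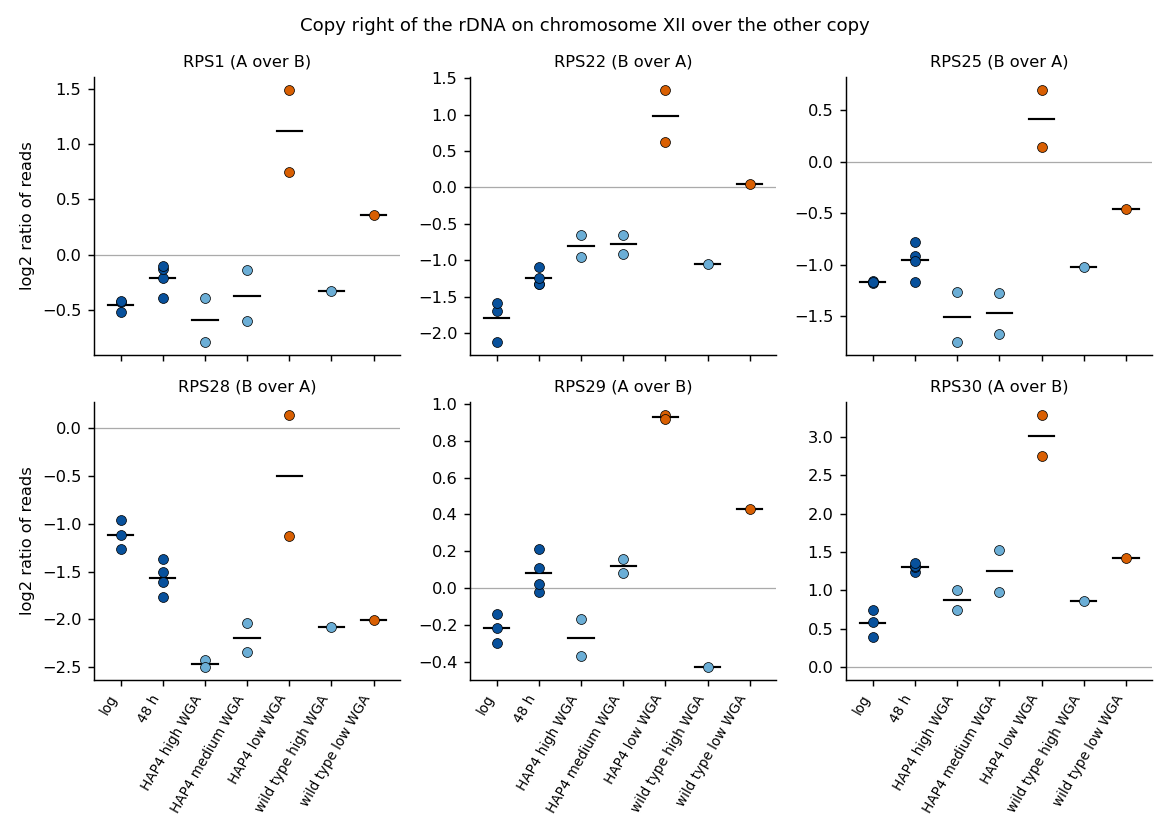
Log2 of reads of the copy right of the rDNA on chromosome XII over the other copy for 6 pairs, in wild type on glucose in log phase and at 48 h and in WGA fractions of 48 h cultures, with 1 point per sample and a bar at the mean; vertical axes differ between panels. The low WGA samples (orange) lie above the high ones in every pair for Pgpd-HAP4, and in wild type RPS28 shows little difference.

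The 13 deletion strains on glucose had 1 sample per age, so their values have no replicate check. They come from the experiments E51 and E57, and no wild-type sample used here does, so strain and experiment cannot be told apart. The share of reads from members ranged from 6.03% to 10.5% in log phase and from 4.31% to 7.49% at 48 h, against 8.22% to 9.13% and 4.1% to 5.07% in wild type. The deletion of DOT6 and TOD6, repressors of ribosome synthesis genes, had the highest share in log phase (10.5%) and 5.02% at 48 h. The hap4 strain had the lowest in log phase (6.03%) and 5.77% at 48 h, and cat8 had 8.77% and 7.49%. Daughter markers summed to 6191 RPM in hap4 in log phase (wild type 3709 to 4153) and to 1125 in cat8 at 48 h (wild type 2191 to 2452). Other strains, among them mig1 at 48 h (1479), also lay outside wild type, and the part of these markers was not tested. On the deposited values the median log2 change of members from log phase to 48 h was -0.37 in hap4 and -0.41 in cat8 and lay between -1.68 and -1.02 in the other 11. All 56 members were lower at 48 h in 11 strains, 55 in mig1 and 49 in hap4. RPS14B was the member with the highest change in 8 of the 13 strains, and RPS30A in 3. RPS9 log2 A over B at 48 h was highest in mig1 and hap4, at -1.85, against -3.18 to -2.97 in wild type. Other strains also stood above that range, among them yak1 (-2.41), adr1 (-2.52) and dot6 tod6 (-2.54). Below it stood cat8 (-3.43), clb5 (-3.26) and snf4 (-3.25). In log phase hap4 was already at -2.22, and mig1 was at -3.18.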

How the data were processed

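Poly(A)+ RNA of 118 samples was sequenced as 75-base single reads. According to the study's methods and the submitters' processing notes, the authors trimmed reads (Trim Galore 0.6.6), aligned them with HISAT2 2.1.0 to build R64, counted them per gene on the opposite strand in SeqMonk, and deposited log2 values of counts scaled by size factors, in 4 tables of 59, 24, 33 and 12 columns. Their own tests used DESeq2 and were not used here. Every sample column was used.

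Whole reads, and from them RPM, were recovered from the deposited log2 values: in every library 100% of values up to 200 reads were whole within 0.1, and counted reads ranged from 561582 to 22453467. The most alike of 66 replicate pairs differed by a chi-square of 2.55 per gene, so all libraries were kept as separate samples. Groups were compared with limma 3.58.1 (R 4.3.3) on values quantile-normalised over all columns of a table, with genes kept where the mean log2 of the reference group reached 2. Sorted fractions and copy ratios were tested on deposited values (sorted fractions from a mean log2 of 4). Calls needed a Benjamini-Hochberg adjusted p under 0.01. Counts at an unadjusted p under 0.05, by limma-voom, with the block or with samples left out are of members or their pairs alone. No share of all genes stands beside these counts, so they cannot show a trend particular to the members. limma-voom on recovered reads, the deposited values, no filter, all groups in one fit, the experiment as a block and leaving out each sample were alternatives. Titles name the experiment, which pairs samples across groups; deviations of same-experiment samples correlated between -0.20 and 0.55. In simulated data 98% of 2-fold (log2 of 1) changes on glucose and 97% on galactose were recovered, and 0% in the fructose and sorted comparisons of 2 samples each. Of changes with a log2 of 0.5, 11% were recovered on glucose, 7% on galactose and 2% in the shift set. In the simulated data changes of that size were thus mostly not called. The simulation changed 200 genes and assumed 1 fixed spread between replicates. The measured data differ from it. From log phase to 48 h on glucose 1742 of 5785 genes were called lower. Among them were 40 of 56 members, with a median log2 change of -0.56 over all members. The simulated percentages therefore do not give the share of measured changes that could be called.

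Named were the 3 members with the highest and the 3 with the lowest change in a comparison, the single-copy members, the 5 pairs whose ratio changed most, pairs with 1 copy right of the rDNA, and the 3 highest and lowest levels; any others were chosen after their values were seen. Some members are counted but not reported here. The members and gene lists were chosen with earlier results of these data known. Upstream windows held the 500 bases before the coding start of 5978 genes.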

Additional observations from a re-analysis of the deposited data

Results flagged for a closer look

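On glucose at 24 h and 48 h, 4 samples at each age allow a check for a sample far from its group. Over both ages 2 of 42 group values had such a sample, where chance gives about 1 in 20. Both were at 24 h. The log2 of RPS1A over RPS1B was -0.37 in one sample against -0.33 to -0.32 in the others, and that of RPS25A over RPS25B was 1.09 in another against 1.12. Both gaps are small because the other samples lay close together.

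The change from log phase to 48 h differed between galactose and glucose by a direct test (limma, adjusted p under 0.01), among others for RPS27A (0.92) and RPS22A (0.79), each higher on galactose on the log2 scale.

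Some values come from samples outside the tested comparisons. In the 1 wild-type low WGA fraction the median log2 of the copy right of the rDNA over the other was 0.20, against -0.78 to -0.72 in the other wild-type samples of that table. In log phase on glucose 4 strains with 1 sample each had a share of reads from small subunit genes above the wild-type range of 8.22% to 9.13%: tec1 (9.19%), dot6 tod6 (10.5%), yak1 (9.37%) and sip4 (9.44%). At 48 h clb5 (5.69%), cat8 (7.49%) and hap4 (5.77%) were above the wild-type range of 4.1% to 5.07%. The strains and the wild type come from different experiments.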

How the results depend on the processing

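The number of members called depends on the scale and on the model. On the deposited values the counts were 53 for glucose log phase to 24 h, 53 for 24 h to 48 h, 2 for galactose log phase to 48 h, 46 for fructose, 28, 1 and 32 for galactose against glucose in log phase, at 24 h and at 48 h, 1 for snf4, 31 for the first sugar with galactose second and 52 for the difference in ageing between the sugars. limma-voom gave 42, 46, 4, 42, 23, 4, 12, 4, 40 and 40 for the same comparisons, and 1 each for cox9 gal80, the second sugar after glucose, the second after galactose and the first with glucose second. With all groups in one fit the counts were 35 (glucose 24 h to 48 h), 7 (galactose log phase to 48 h), 38 (fructose), 27 and 7 (galactose against glucose in log phase and at 48 h), 1 each for cox9 gal80, snf4 and both second-sugar comparisons, 10 and 6 for the first sugar with galactose and with glucose second, and 23 for the difference in ageing. Without the filter they were 0 (fructose), 1 (galactose against glucose in log phase), 1 (first sugar, galactose second) and 2 (WGA), and quantile normalisation gave 2 for WGA.

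With the experiment as a replicate block the counts were 2 and 9 for the shorter glucose steps, 0 for galactose log phase to 24 h, 1 for fructose, 0 and 0 for galactose against glucose in log phase and at 24 h, 0 for the first sugar with galactose second and 5 for the difference in ageing. For copy ratios the block gave 1 on galactose and 4 for the second sugar after glucose, and ratios of quantile-normalised values 1 (galactose against glucose in log phase), 2 (second sugar after glucose) and 1 (first sugar, glucose second).

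Leaving out 1 sample at a time gave 5 to 17, 7 to 21 and 25 to 39 members for the glucose steps to 24 h, from 24 h to 48 h and from log phase to 48 h, 0 to 1 for both galactose comparisons with log phase, 0 to 2 for fructose, 0 to 4, 0 to 2 and 0 to 1 for galactose against glucose in log phase, at 24 h and at 48 h, 0 for the first sugar with galactose second, 0 to 46 for WGA and 2 to 9 for the difference in ageing. Copy ratios gave 7 to 12 on glucose, 1 to 2 on galactose, 0 to 2 between the sugars, 2 to 13 for WGA, 0 for the second sugar and 0 to 3 for the first.

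Signs turned, where a value was called in at least 1 fit, for RPS31 (glucose to 24 h, -0.65 deposited and -0.33 by limma-voom; to 48 h, -1.12 and -0.55; difference in ageing, 0.83 deposited), RPS25A (to 24 h, -0.49 deposited), RPS30A (to 48 h, -0.68 deposited) and, with quantile-normalised ratios, RPS14 (0.14) and RPS22 (0.02). Of the other 131 alternative values of called members and pairs that were no longer called, all kept their sign, and of 1370 alternative values of named members and pairs not called as reported, 90 had the other sign without a call. The ratio of shares on glucose was 0.488 with reads outside ribosomal protein genes as the total. The causes were not tested. Comparisons of 2 samples per group, and the shallowest fractions (561582 and 565971 reads), limit what could be called.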
